A study of Mus musculus with 12 samples.

Results

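The Spata genes were named for spermatogenesis-associated transcripts, and the name says where a transcript was first noticed rather than what its protein does. All genes of the deposited mouse testis table whose symbol begins with Spata and a digit were taken, leaving out 1 gene by that rule, which gave 29 of the 20788 genes in the table. The rule used symbols alone and no measured value. Testes of F1 (muF1) males were profiled by RNA-seq at 8 weeks of age in 4 groups of 3 libraries. Their sires were ICR males (the labels write IRC mouse) whose testes received a lentivirus at 4 weeks of age and which were then mated with untreated females. The sires of 3NC received the control virus of the LV3 vector, for which the methods list a control hairpin, and those of the lncRNA5251 knockdown group the LV3 vector with 3 shRNAs against lncRNA5251. The sires of 5NC received the LV5 vector alone and those of the lncRNA5251 overexpression group the LV5 vector with full-length lncRNA5251. The design text of the series says instead that the F1 testes themselves were transfected, and no source used here says which cells took up the virus. The labels do not tie any library to an animal or a litter, so p-values measure the spread between libraries, which may be technical. The transcript lncRNA5251 has no row in the table, so the knockdown and the overexpression could not be checked in these libraries.

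Spermatogenesis runs from spermatogonia through meiotic spermatocytes to round and then elongating spermatids, in which the acrosome, the connecting piece behind the head and the mitochondrial sheath of the midpiece are built. Several Spata proteins serve these late steps. SPATA16 acts at the Golgi-derived acrosome, SPATA6 in the connecting piece that joins head and tail, SPATA46 in shaping of the sperm head, and SPATA19 and SPATA33 at the mitochondria of the midpiece. Others work in many tissues. SPATA2 and SPATA2L join the deubiquitinase CYLD to the linear ubiquitin ligase at the TNF receptor, SPATA5 and SPATA5L1 are AAA-type ATPases of ribosome maturation, SPATA7 belongs to the connecting cilium of the retina, and SPATA18 takes part in mitochondrial quality control. SPATA20 has a thioredoxin-like domain.

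The libraries held 12719699 to 15771655 estimated reads, and the Spata genes together took 0.783% (3NC replicate 2) to 0.926% (knockdown replicates 2 and 3) of them. Markers of spermatogonia, spermatocytes, round and elongating spermatids, Sertoli cells and Leydig cells were present in all 4 groups, with 0 markers of these lists at a median under 0.1 RPKM (read counts scaled for transcript length and library depth). Macrophage markers summed to 495 CPM (counts scaled to library depth with TMM factors, not to transcript length) in 3NC replicate 2 and 656.3 CPM in knockdown replicate 1, against 109.7 to 148.2 CPM in the other libraries. Epididymal markers summed to 13.41 to 284.9 CPM in 5NC, 31.2 to 74.7 CPM in 3NC, at most 17.13 CPM in the knockdown group and at most 1.587 CPM in the overexpression group, with 6 of the 10 genes under a median of 0.1 RPKM.

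All 29 Spata genes were detected and passed the filter on low counts. Their levels ran from 1.52 RPKM to 1186 RPKM by the median over libraries, as the plot of levels shows. Median RPKM over the 12 libraries was at least 100 for 15 genes, from 10 to 100 for 11 genes and from 1 to 10 for 3 genes. Of all genes in the table, 31.7% reached 10 RPKM and 5.76% reached 100 RPKM. Spata4 was the highest at a median of 1186 RPKM, with a range of 1049 to 1387. Spata33, whose product ties calcineurin to sperm mitochondria, followed at 1066 RPKM with a range of 912 to 1196, which overlaps that of Spata4. Spata24 had a median of 829.6 RPKM (658 to 909) and did not reach the lowest Spata33 library. Spata19 had a median of 603 RPKM (529 to 673), which overlaps the range of Spata24 only at its upper end. Spata3 (442 RPKM, 308 to 581) and Spata6 (420.2 RPKM, 375 to 475) overlapped each other.

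**Figure D1:**
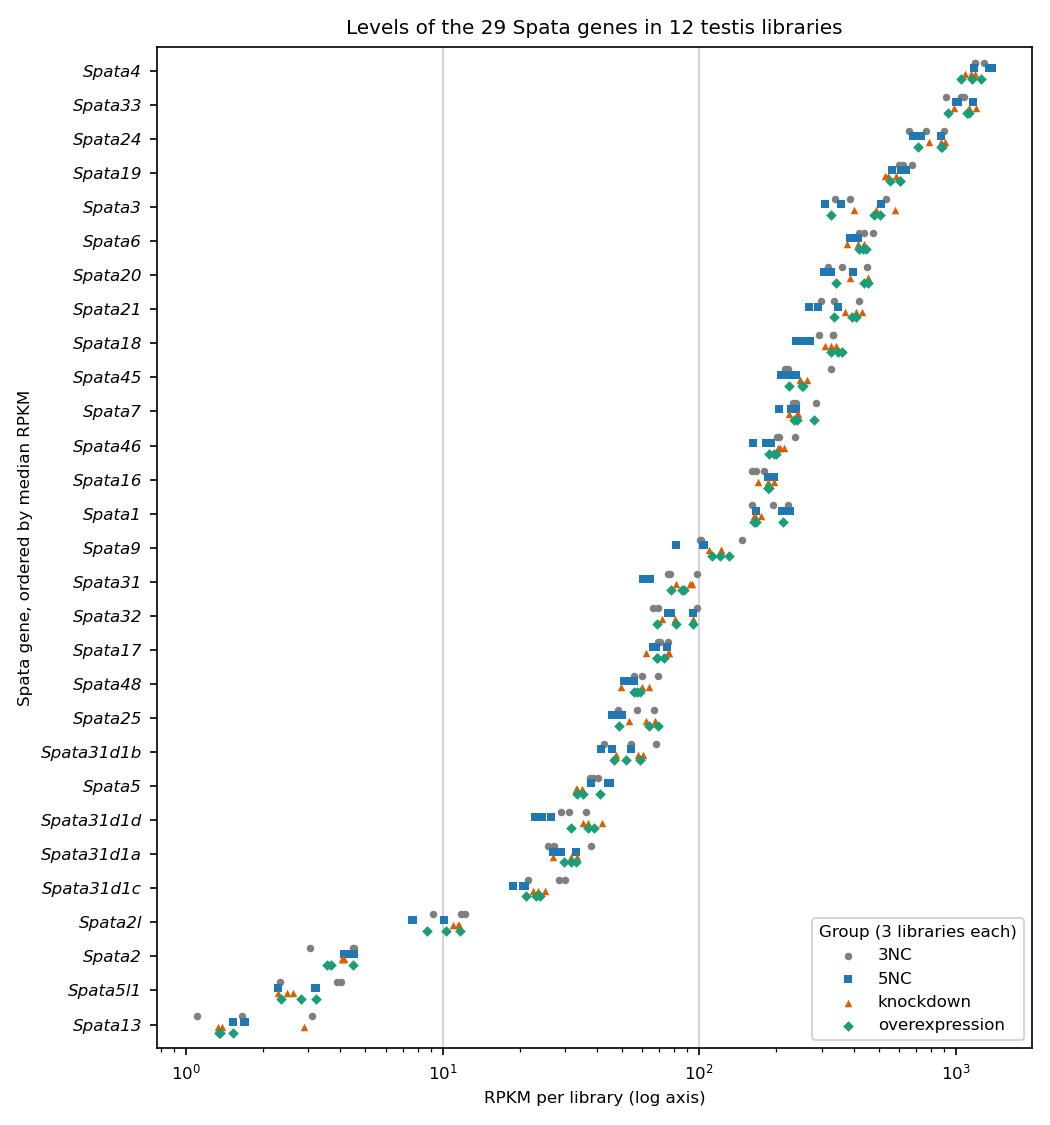
RPKM of each Spata gene (vertical axis, ordered by median) in each of 12 testis libraries (horizontal axis, log scale, 1 point per library, shape and colour by group). Levels run from a median of 1.52 RPKM for Spata13 to 1186 RPKM for Spata4, and the spread within a gene is small beside the spread between genes.

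The 3 genes under 10 RPKM were Spata2 (median 4.13 RPKM), Spata5l1 (2.71 RPKM) and Spata13 (1.52 RPKM), and Spata2l lay just above them at 10.7 RPKM. Spata5, the relative of Spata5l1, reached 37.7 RPKM. Spata16 and Spata46, of sperm structures, were at 185 and 199.9 RPKM, and Spata18 was at 326 RPKM. The retinal gene Spata7 was at 239 RPKM and Spata20 at 393 RPKM in these testes. The lowest and highest library of a gene differed less than 2-fold for 28 of the 29 genes.

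The exception was Spata13. Its highest libraries were 3NC replicate 2 and knockdown replicate 1, the same pair in which macrophage markers were high. Lymphocyte markers were also high in this pair, at 72.83 and 59.99 CPM against 6.426 to 12.96 CPM in the other libraries. Spata13 measured 10.1, 16.8 and 6.96 CPM in 3NC, 15.7, 8.37 and 8.64 CPM in the knockdown group, 9.23, 9.71 and 10.2 CPM in 5NC and 9.73, 8.59 and 8.65 CPM in the overexpression group. The part of other cell types in these values was not tested, and in whole testis more cells of a type and more RNA per cell cannot be told apart.

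The Spata31 family sits in 2 stretches of chromosome 13 (build GRCm38). Spata31d1a (chr13:59700083-59706587), Spata31d1b (chr13:59712284-59719289) and Spata31d1d (chr13:59725925-59731752) are neighbours, and Spata31 (chr13:64917406-64923195) lies near Spata31d1c (chr13:65033058-65038004). Median levels were 79.4 RPKM for Spata31, 53.0 RPKM for Spata31d1b, 33.4 RPKM for Spata31d1d, 30.6 RPKM for Spata31d1a and 22.9 RPKM for Spata31d1c. Spata31d1a and Spata31d1b share sequence. Of the runs of 50 bases in their GENCODE transcripts, 18.8% of Spata31d1a and 24.9% of Spata31d1b stood in the other gene, and both genes carried fractional counts in 12 of 12 libraries. How their reads were divided is uncertain. Their summed level was 446, 269 and 354 CPM in 3NC, 358, 278 and 304 CPM in 5NC, 302, 400.2 and 382 CPM in the knockdown group and 355, 388 and 320.4 CPM in the overexpression group, and the 4 groups overlapped. Other genes share bases with a gene on the opposite strand, most of all Spata25 with Zswim1 (18.3% of its 50-base runs), Spata2l with Cdk10 (10.2%), Spata48 with Zpbp (9.63%), Spata4 with 5330439A09Rik (6.75%) and Spata5 with Nudt6 (6.73%). Smaller shares included Spata1 with Ctbs (2.95%) and Spata31d1d with Gm46419 (2.51%), and Spata1 had fractional counts in 9 libraries. The sources used here do not state whether counting used the strand, so reads of these pairs cannot be told apart.

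Promoter sequence was looked at because factors of the cAMP response element family act in spermatids. RefSeq (GRCm38.p6) gave promoters, from 250 bases before to 50 bases after the start, for 27 of the 29 genes. The shortened element TGACGT, read on both strands, was found in 6 of 27 genes (22.2%) against 8.37% of all genes with a promoter. The full element TGACGTCA, which contains it, was in 1 of 27 (3.7%, against 2.03%), the RFX box GTTGCCAT in 2 of 27 (7.41%, against 1.54%) and the MYB site AACNGTT in 1 of 27 (3.7%, against 5.01%). These are matches of letters with no test, and no binding was measured. The 5 promoters for which a window of 30 bases around the match lies wholly before the start are shown, with the match in capitals, because Spata18 among them led the comparison of the overexpression group with 5NC and Spata6 and Spata5 are described below. The match of Spata7, from position -7 to -2, is so near the start that its window runs past it and is not shown. Positions count back from the start, and ACGTCA is TGACGT read on the other strand. Some genes have more than 1 annotated start. The Spata48 window lies inside the gene (chr11:11463744-11515192), before an internal start.
Spata18, chr5:73651311-73651340, plus strand, motif from position -57 to -52: cagccggccgccACGTCAaggtttgtttaa
Spata6, chr4:111719866-111719895, plus strand, motif from position -132 to -127: actcataactttACGTCAcagaagagccgc
Spata48, chr11:11484465-11484494, plus strand, motif from position -83 to -78: caaggcttaggaACGTCAcagaagcagtgg
Spata32, chr11:103218484-103218513, minus strand, motif from position -69 to -64: cccctggcctgaACGTCAcagaagccgcag
Spata5, chr3:37419735-37419764, plus strand, motif from position -203 to -198: gcccacatcgccTGACGTagccttgtctcc
Spata6, Spata48 and Spata32 carried the same 12 bases, ACGTCACAGAAG, which stood in 14 of all 32851 promoters (0.0426%). This run was noticed in the printed windows and overlaps the element itself.

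Whether offspring of knockdown sires differed from those of the LV3 control was asked first. Of the 29 Spata genes, 0 were higher and 0 were lower in the knockdown group than in 3NC by edgeR's quasi-likelihood test at an adjusted p under 0.05, and 0% of all 16388 genes tested passed. DESeq2 also called 0 Spata genes, against 0.0976% of all genes. At an unadjusted p under 0.05 there were 0 higher and 0 lower Spata genes, where all genes gave 2.56% higher and 3.08% lower. Leaving out 1 library at a time gave 0 to 3 Spata genes in either direction, with 3 without 3NC replicate 1 or 3. The shares of all genes in those fits were not counted. The median log2 fold change of the Spata genes was 0.03, beside -0.02 over all genes tested, with 17 of 29 above 0, and leaving out 1 library at a time moved it from -0.0875 to 0.0959, below 0 without 3NC replicate 2 or knockdown replicate 2 or 3. Groups that did not overlap were found for 1 Spata gene, which was lower, and for 0 that were higher, against 6.36% and 4.95% of all genes.

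That gene was Spata5, the ribosome maturation ATPase. It measured 107, 110.0 and 116 CPM in 3NC and 96.0, 99.4 and 99.8 CPM in the knockdown group, a log2 fold change of -0.17 (SE 0.09, edgeR adjusted p = 0.764). The 3 libraries of the knockdown group lay below all of 3NC by a small margin. Spata5l1, its relative, had the lowest fold change at -0.45 (SE 0.22, edgeR adjusted p = 0.764). Its values were 5.16, 8.26 and 8.92 CPM in 3NC and 5.31, 5.12 and 5.87 CPM in the knockdown group, so the groups overlapped through 3NC replicate 1. Spata19, of the sperm mitochondria, measured 356, 314 and 397 CPM in 3NC and 290.3, 339.6 and 318 CPM in the knockdown group, with a log2 fold change of -0.17 (SE 0.09, edgeR adjusted p = 0.764). Without 3NC replicate 3 the fold change was -0.0725 for Spata19 and -0.292 for Spata5l1, and without knockdown replicate 1 it was -0.113 for Spata19.

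On the higher side, Spata31d1d had a log2 fold change of 0.26 (SE 0.13, edgeR adjusted p = 0.764). It measured 135, 101 and 121 CPM in 3NC and 127, 158 and 140.5 CPM in the knockdown group, overlapping through the lowest library of the knockdown group. Spata16, of acrosome biogenesis, measured 338, 282 and 324 CPM and 309.5, 355 and 376 CPM in the same order, a log2 fold change of 0.14 (SE 0.09, edgeR adjusted p = 0.764). Spata21, a gene whose product has calcium-binding EF-hand motifs, measured 1015, 677 and 845 CPM in 3NC and 869, 1063 and 1008 CPM in the knockdown group, a log2 fold change of 0.21 (SE 0.16, edgeR adjusted p = 0.766). Its lowest value was in 3NC replicate 2. Without that library the fold change was 0.0728 for Spata21, 0.149 for Spata31d1d and 0.0634 for Spata16. Leaving out 3NC replicate 1 gave 0.372 for Spata21, leaving out knockdown replicate 2 gave 0.17 for Spata31d1d, and leaving out knockdown replicate 1 or 3 gave 0.214 or 0.0775 for Spata16. The 95% interval lay wholly within 1 log2 unit of 0 for 29 of 29 genes and within 0.5 log2 units for 20 of 29, so a doubling was outside the interval of each Spata gene.

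The offspring of overexpression sires were then compared with the LV5 control. Of the 29 Spata genes, 0 passed the edgeR threshold in either direction, against 0.311% of all genes. The genes leaned upward, with a median log2 fold change of 0.18 beside -0.01 over all genes and with 23 of 29 above 0. Without 5NC replicate 2 the median was 0.112, the lowest with 1 library left out. At an unadjusted p under 0.05, 6 Spata genes (20.7%) were higher and 0 lower, where all genes gave 7.07% and 4.85%. Leaving out 1 library at a time gave 3 to 8 such genes in either direction, with 3 without overexpression replicate 1, and the shares of all genes in these fits were not counted. The 3 libraries of the overexpression group lay above all 3 of 5NC for 10 genes (34.5%) and below them for 0, where all genes gave 11.3% above and 10% below. The genes are not independent of each other. The p-values take their spread from the fit of 12 libraries, and a fit of only the 6 libraries compared gave 10 Spata genes in either direction at an unadjusted p under 0.05. The share of all genes at that cut was not counted in this fit. At the adjusted threshold it called 107 of all genes, where the fit of 12 libraries called 51.

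Spata18, the mitochondrial quality control gene whose promoter is shown above, had the smallest p. It measured 484, 419 and 453 CPM in 5NC and 645, 664 and 593 CPM in the overexpression group. The lowest library of the overexpression group stood above the highest of 5NC, and the log2 fold change was 0.49 (SE 0.10, edgeR adjusted p = 0.0906), with a 95% interval of 0.27 to 0.71. In the other pair of groups Spata18 measured 609.7, 502 and 630.3 CPM in 3NC and 552, 609 and 636 CPM in the knockdown group, which overlapped each other and the overexpression group but not 5NC.

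Spata31d1d had the largest fold change at 0.59 (SE 0.13, edgeR adjusted p = 0.0926), from 96.5, 82.6 and 88.0 CPM in 5NC to 147, 138 and 117 CPM in the overexpression group. Within the Spata31 family, Spata31 came next at 0.46 (SE 0.12, edgeR adjusted p = 0.159), from 184, 193 and 195 CPM to 277, 244 and 266 CPM. In both genes all overexpression libraries were above all 5NC libraries. The other members of the family had smaller differences, at 0.23 for Spata31d1c, 0.20 for Spata31d1b and 0.14 for Spata31d1a on the log2 scale, with edgeR adjusted p of 0.546, 0.744 and 0.807. The summed reads of Spata31d1a and Spata31d1b gave 0.18 (SE 0.17, edgeR adjusted p = 0.766).

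Calls for the leading genes differed between tests, input values and the libraries fitted. DESeq2 called 3 Spata genes higher, against 2% of all genes called in either direction. They were Spata18 (adjusted p = 0.000924), Spata31d1d (0.00282) and Spata31 (0.0276). limma-trend on log2(RPKM + 0.1) called 1, Spata18 (adjusted p = 0.0394), against 0.527% of all genes. On log2 CPM, limma-trend called 0. edgeR on the 6 libraries of this comparison alone called 2, Spata31 (adjusted p = 0.0463) and Spata18 (adjusted p = 0.0465), against 0.675% of all genes.

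A further 3 genes had an unadjusted p under 0.05. Spata9 measured 76.8, 95.5 and 95.8 CPM in 5NC and 119, 109 and 124 CPM in the overexpression group (0.39 (SE 0.16, edgeR adjusted p = 0.372) on the log2 scale) and did not overlap. Spata21 (0.38, edgeR adjusted p = 0.376) and Spata25 (0.41, edgeR adjusted p = 0.392) overlapped between the groups. Spata46, of the sperm head, measured 93.0, 101 and 106 CPM in 5NC and 116, 109.7 and 114 CPM in the overexpression group, with no overlap and a log2 fold change of 0.18 (SE 0.10, edgeR adjusted p = 0.527). Spata6, of the connecting piece, measured 893, 922 and 943 CPM and 1001, 1026 and 1041 CPM in the same order, also with no overlap, at 0.15 (SE 0.10, edgeR adjusted p = 0.588). Spata16 was at 339.8, 353 and 346 CPM in 5NC and 354, 353 and 345 CPM in the overexpression group, and its log2 fold change of 0.02 had a 95% interval of -0.18 to 0.21. For Spata19 the interval was -0.20 to 0.22 and for Spata33 -0.28 to 0.34.

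Spata7, the retinal cilium gene, measured 341, 394 and 379 CPM in 5NC and 408, 413 and 466 CPM in the overexpression group, without overlap, a log2 fold change of 0.21 (SE 0.11, edgeR adjusted p = 0.498). Spata20 measured 965, 731 and 781 CPM and 1098, 1132 and 841 CPM, which overlapped, at 0.31 (SE 0.17, edgeR adjusted p = 0.512). Ordered by unadjusted p, the lower side was led by Spata5 with 109, 124 and 124 CPM in 5NC and 95.2, 103 and 121 CPM in the overexpression group, a log2 fold change of -0.17 (SE 0.09, edgeR adjusted p = 0.525). Spata4 followed with 1072, 1239 and 1209 CPM and 991, 1086 and 1150.0 CPM (-0.13 (SE 0.10, edgeR adjusted p = 0.686)), and Spata2, the CYLD partner, with 17.0, 15.1 and 15.7 CPM and 14.4, 16.8 and 13.5 CPM (-0.09 (SE 0.14, edgeR adjusted p = 0.863)). The groups overlapped in all 3 genes. With 1 library left out at a time, the fold change ran from -0.258 to -0.0891 for Spata5 (without overexpression replicate 3 and 1), from -0.188 to -0.0672 for Spata4 (without 5NC replicate 1 and overexpression replicate 1) and from -0.183 to -0.0194 for Spata2 (without overexpression replicate 2 and 3).

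**Figure D2:**
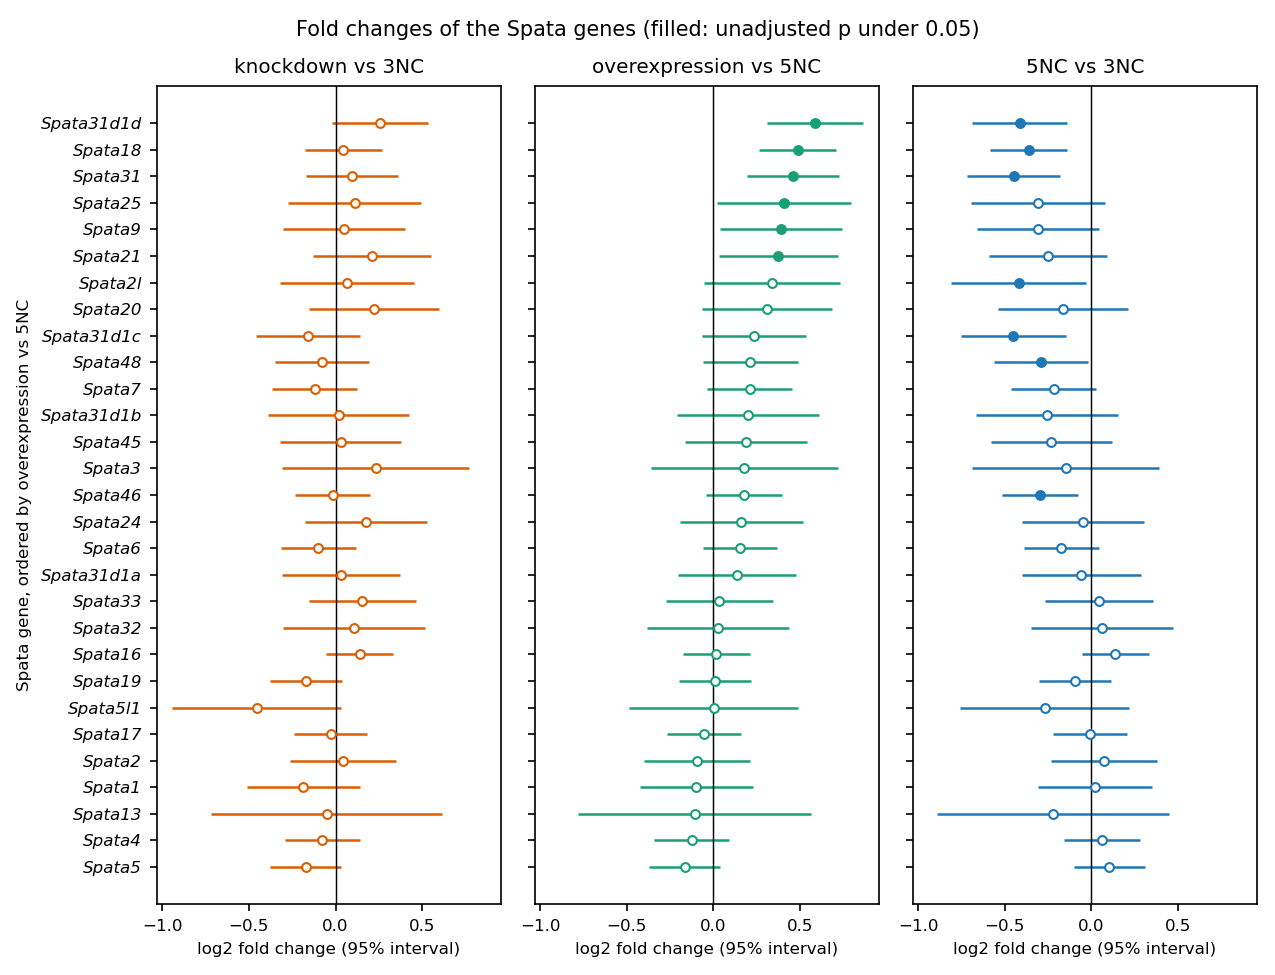
Log2 fold change (point) and 95% interval (line) of each Spata gene in 3 comparisons, with filled points for an unadjusted edgeR p under 0.05. Filled points stand on the higher side in overexpression against 5NC (6 genes) and on the lower side in 5NC against 3NC (7 genes), and there are 0 in knockdown against 3NC.

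The vector controls were compared with each other because 5NC enters the overexpression comparison as its reference. Of the 29 Spata genes, 0 passed the edgeR threshold, against 0.128% of all genes. The lean was downward in 5NC, with a median log2 fold change of -0.22 beside -0.02 over all genes and with 22 of 29 below 0. Without 3NC replicate 1 or 3 the median was -0.0941 or -0.0961. At an unadjusted p under 0.05, 7 Spata genes (24.1%) were lower in 5NC and 0 higher, where all genes gave 6.55% and 4.21%. Leaving out 3NC replicate 2 gave 14 such genes in either direction, and leaving out 3NC replicate 3 gave 3, with the shares of all genes in these fits not counted. The groups did not overlap for 5 genes that were lower (17.2%) and for 1 that was higher, where all genes gave 6.18% and 6.8%. DESeq2 called 1 Spata gene, Spata31 (adjusted p = 0.0483), against 1.04% of all genes. Without 3NC replicate 2, edgeR called 1 instead of 0, Spata31d1c, at a log2 fold change of -0.61 and an adjusted p of 0.043, against 0.212% of all genes.

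The 5 lower genes were Spata31, Spata18, Spata31d1d, Spata31d1c and Spata46. Spata31 measured 242, 220.5 and 319 CPM in 3NC, and the log2 fold change in 5NC was -0.45 (SE 0.12, edgeR adjusted p = 0.262), or -0.267 without 3NC replicate 3. For Spata18 it was -0.36 (SE 0.10, edgeR adjusted p = 0.27) and for Spata31d1d -0.41 (SE 0.13, edgeR adjusted p = 0.296). In a fit with a term for the libraries of fewest reads, Spata18 was at -0.265, Spata31d1d at -0.264 and Spata31 at -0.485. Spata31d1c measured 93.9, 66.4 and 102 CPM in 3NC and 60.3, 66.1 and 65.5 CPM in 5NC, at -0.45 (SE 0.14, edgeR adjusted p = 0.296), and its highest 5NC library lay just under the lowest of 3NC. Spata46 measured 117, 109 and 143 CPM in 3NC, at -0.30 (SE 0.10, edgeR adjusted p = 0.339). The gene that was higher was Spata16, at 0.14 (SE 0.09, edgeR adjusted p = 0.593), or 0.0645 without 3NC replicate 2. Spata5 and Spata4 had the next smallest p on that side, at 0.10 (SE 0.09, edgeR adjusted p = 0.723) and 0.06 (SE 0.10, edgeR adjusted p = 0.858), and both overlapped. With 1 library left out at a time, Spata5 ran from 0.0695 to 0.158 (without 5NC replicate 3 and 1) and Spata4 from -0.000447 to 0.149 (without 3NC replicate 2 and 3). Both lost this direction, to -0.05 and -0.05, in a fit with a term for the libraries of fewest reads. Spata2l, of the TNF-receptor complex, measured 25.2, 17.3 and 25.9 CPM in 3NC and 20.7, 14.8 and 15.7 CPM in 5NC, at -0.42 (SE 0.18, edgeR adjusted p = 0.441). Spata48 completed the 7 genes at -0.29 (SE 0.12, edgeR adjusted p = 0.444).

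The 2 comparisons share the 5NC libraries, so their fold changes are not independent. For 5 Spata genes (17.2%) all 3 libraries of 5NC lay below the other 9 libraries, against 3.08% of all genes, and they were the same 5 genes as above. This count was made after the values were seen. No Spata gene had all 3 libraries of 3NC, the knockdown group or the overexpression group below the other 9, as the map of deviations and the plot of CPM by group show. All genes gave 0.25%, 1.1% and 0.415% in the same order, so 0 Spata genes is near the share of all genes in these groups.

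**Figure D3:**
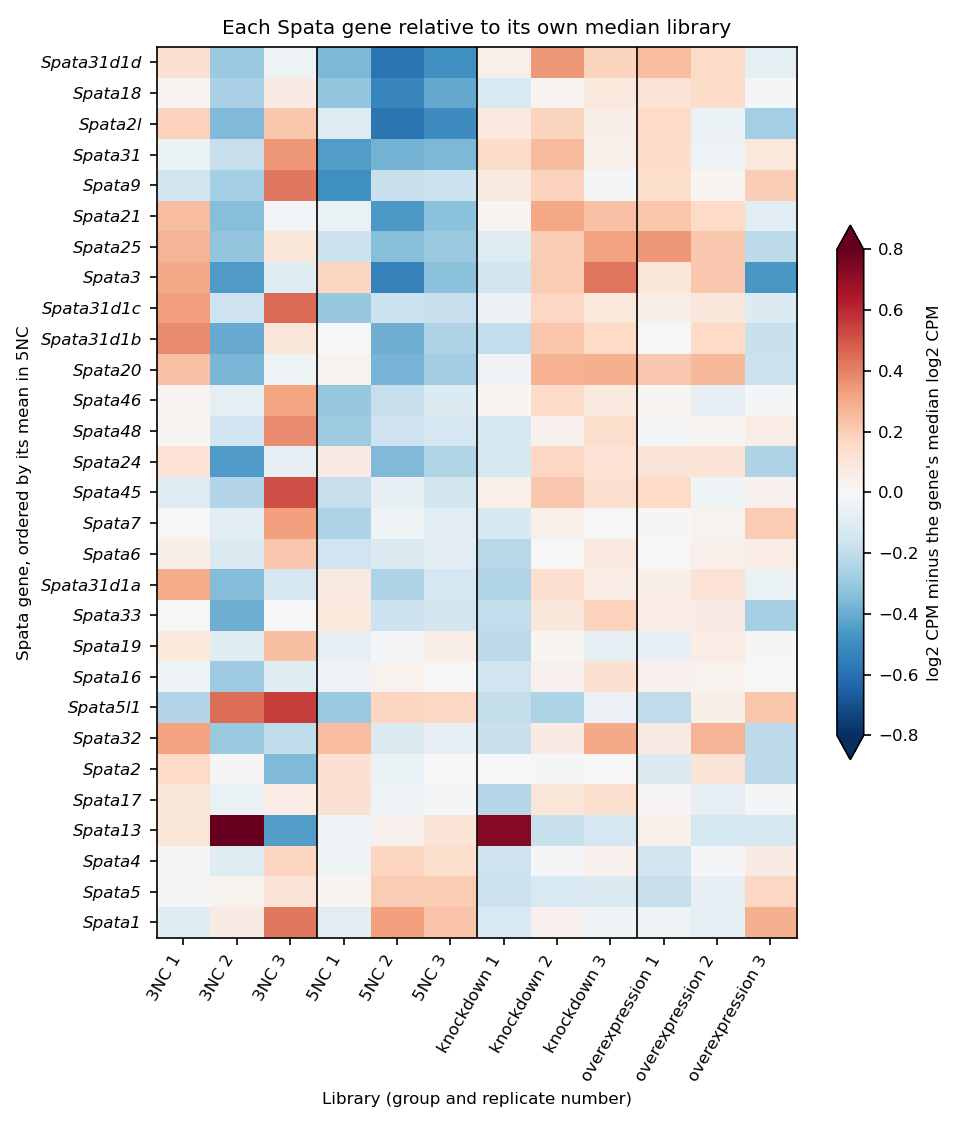
Log2 CPM of each Spata gene (rows, ordered by the mean in 5NC) in each library (columns) minus the median of that gene over 12 libraries, with blue below and red above. The 5NC columns are blue for most upper rows, 3NC replicate 2 is blue for many rows, and Spata13 is darkest red in 3NC replicate 2, where it exceeds the colour scale, and in knockdown replicate 1.

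Other measures moved with 5NC. Round spermatid markers, of which 10 of 10 were tested, summed to 1343 to 1441 CPM in 5NC, 1582 to 1864 CPM in the overexpression group, 1694 to 1883 CPM in the knockdown group and 1353 to 1898 CPM in 3NC, where the low value was replicate 2. Their median log2 fold change was 0.358 in overexpression against 5NC and -0.282 in 5NC against 3NC, beside 0.18 and -0.22 for the Spata genes. At an unadjusted p under 0.05, 6 of the 10 were higher and 0 lower in the first comparison, and 0 were higher and 6 lower in the second. All genes gave 7.07% higher and 4.85% lower in the first and 4.21% higher and 6.55% lower in the second. Tex21 passed the edgeR threshold as higher in the overexpression group than in 5NC (0.43, edgeR adjusted p = 0.0485). Elongating spermatid markers overlapped between the groups, at 17610 to 21310 CPM in 5NC and 19010 to 22800 CPM in the overexpression group. Their median log2 fold change was 0.197 in overexpression against 5NC, with 2 higher and 0 lower at an unadjusted p under 0.05, and -0.169 in 5NC against 3NC, with 0 higher and 2 lower. Spermatocyte markers did not share this lean. Their medians were 0.0166, with 1 higher and 2 lower, and 0.0759, with 2 higher and 0 lower, in the same order. Epididymal markers were higher in 5NC, at 13.41 to 284.9 CPM against at most 1.587 CPM in the overexpression group. The beta-globin gene Hbb-bs was at 0, 0 and 0.0716 CPM in 5NC, 13, 14.1 and 6.01 CPM in 3NC, 3.22, 3.66 and 3.85 CPM in the knockdown group and 4.41, 10.4 and 7.3 CPM in the overexpression group. Near-identical globin genes share reads. The part of these differences in the Spata values was not tested, and vector, sire and litter cannot be told apart.

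**Figure D4:**
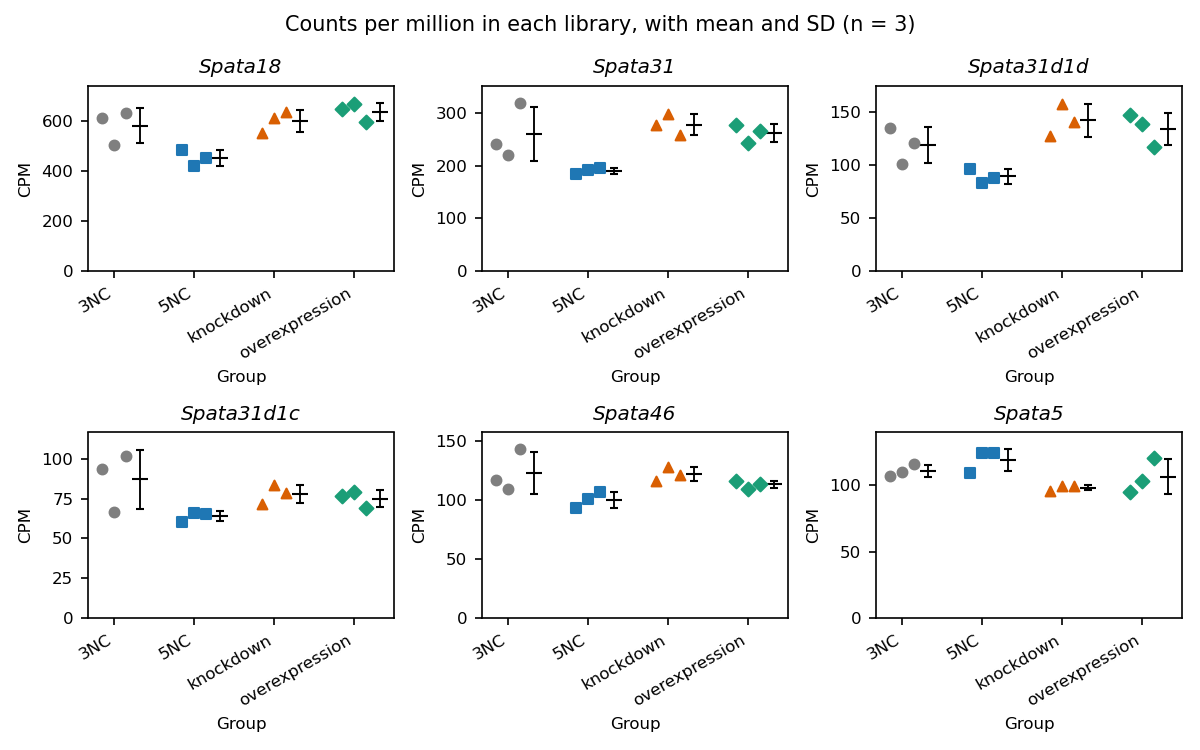
CPM of 6 Spata genes in each library (points, 3 per group), with the group mean and SD as a bar beside them and axes from 0. In Spata18, Spata31, Spata31d1d, Spata31d1c and Spata46 the 5NC points are below all others, and in Spata5 the knockdown points are below those of 3NC.

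Depth also moved with some genes. The 3 libraries of fewest reads were 5NC replicates 2 and 3 and overexpression replicate 3, with at most 13847277 reads against at least 15188804 in the others. Within both 5NC and the overexpression group, 13 Spata genes were lower in these libraries than in the rest of their group, 11 were higher and 5 were mixed, and within a group this sets 1 library against 2. Spata3 was lower by the widest margin, at -0.60 in 5NC and -0.62 in the overexpression group on the log2 scale. Its values were 392, 239.8 and 278 CPM in 5NC and 373, 405 and 252 CPM in the overexpression group. Spata20 (-0.35 and -0.41) and Spata24 (-0.36 and -0.35) moved the same way. Spata1 (0.37 and 0.34) and Spata5l1 (0.47 and 0.30) were higher in the libraries of fewest reads.

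With a term for the 3 libraries of fewest reads, a fit added after the data were seen, the median of the Spata genes was 0.14 in overexpression against 5NC and -0.13 in 5NC against 3NC, where the fit without it gave 0.18 and -0.22, and edgeR called 0 in each.

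**Figure D5:**
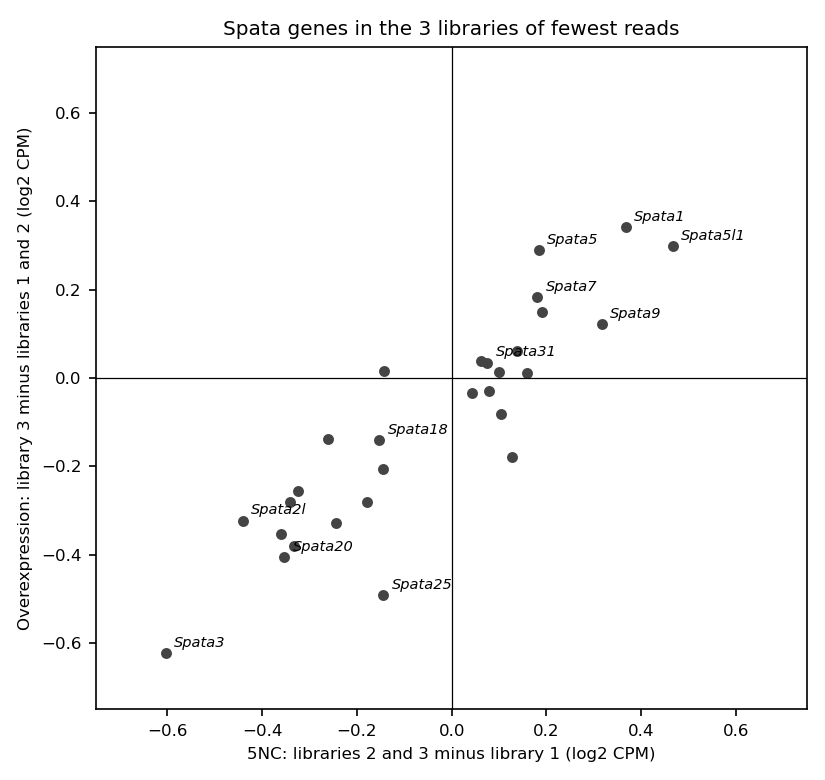
For each Spata gene (1 point), the log2 CPM difference between the shallower and the deeper libraries within 5NC (horizontal axis) and within the overexpression group (vertical axis). Of the 29 genes, 13 lie at the lower left, with Spata3 farthest out, and 11 in the upper right, with Spata1 and Spata5l1 farthest.

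Whether knockdown and overexpression had different effects was tested as the difference of both fold changes, each taken against its own vector control. Of the 29 Spata genes, edgeR called 0, against 0.0244% of all genes, and DESeq2 called 0, against 0.256%. At an unadjusted p under 0.05, 1 Spata gene was lower and 0 higher, where all genes gave 2.73% and 1.9%. That gene was Spata18, with a log2 fold change of 0.05 in knockdown against 3NC and 0.49 in overexpression against 5NC, a difference of -0.44 (SE 0.14, edgeR adjusted p = 1). Spata31 (-0.36 (SE 0.17, edgeR adjusted p = 1)) and Spata7 (-0.33 (SE 0.16, edgeR adjusted p = 1)) had the next smallest unadjusted p on the lower side, and without 3NC replicate 3 these were -0.187 and -0.188. By size, Spata5l1 (-0.46) and Spata31d1c (-0.39) lay lower than both. On the higher side stood Spata16 at 0.12 (SE 0.12, edgeR adjusted p = 1), Spata2 at 0.14 (SE 0.20, edgeR adjusted p = 1) and Spata33 at 0.12 (SE 0.20, edgeR adjusted p = 1). Leaving out 1 library at a time took these from 0.0466 (3NC replicate 2) to 0.197 (knockdown replicate 1) for Spata16, from 0.00996 (3NC replicate 3) to 0.252 (3NC replicate 1) for Spata2 and from 0.000177 (3NC replicate 2) to 0.225 (knockdown replicate 1) for Spata33. The median difference was -0.16 beside -0.02 over all genes, and leaving out 3NC replicate 2 or 3 took it to -0.274 or -0.097. Without 3NC replicate 2, 8 Spata genes had an unadjusted p under 0.05, a cut for which the share of all genes was not counted, and 0 passed the adjusted threshold. No Spata gene had one effect up and the other down without overlap. At most 1 could have, because only Spata5 was without overlap in knockdown against 3NC, and the share of all genes with this pattern was not counted.

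Partners of these proteins and other genes of the same processes were counted from lists of 75 genes, each gene tested in the same fit. By edgeR, 0 of the 75 passed in knockdown against 3NC, 1 (1.33%, against 0.311% of all genes) in overexpression against 5NC, 0 in 5NC against 3NC and 0 in the difference. DESeq2 called 0 in the first and the last, 4 (5.33%, against 2% of all genes) in overexpression against 5NC and 2 (2.67%, against 1.04%) in 5NC against 3NC. The 4 were Otulin, Pdzd8, Sun5 and Lsg1, and the 2 were Otulin and Pdzd8. At an unadjusted p under 0.05 the counts were 0 higher and 0 lower in knockdown against 3NC. In overexpression against 5NC 15 were higher and 4 lower (20% and 5.33%, against 7.07% and 4.85% of all genes). In 5NC against 3NC 3 were higher and 8 lower (4% and 10.7%, against 4.21% and 6.55%), and in the difference 1 and 4 (1.33% and 5.33%, against 1.9% and 2.73%).

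The gene that passed was Otulin, a deubiquitinase of linear chains from the list of TNF-receptor ubiquitin complexes, and it was lower in the overexpression group than in 5NC (-0.72, edgeR adjusted p = 0.0415). Otulin measured 18.3, 18.6 and 19.8 CPM in 5NC, 12.2, 11.4 and 10.8 CPM in the overexpression group, 13.4, 14.4 and 12 CPM in 3NC and 13.9, 11 and 12.5 CPM in the knockdown group, so that 5NC stood above the other groups. The other 11 genes of that list did not pass. In knockdown against 3NC, Rbck1, of the linear ubiquitin ligase, had the smallest p of the list (0.27, edgeR adjusted p = 0.764).

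Among 15 genes of head-tail coupling, where Spata6 acts, Sun5 had the smallest p in each pair of groups, at 0.27 in knockdown against 3NC, 0.47 in overexpression against 5NC and -0.30 in 5NC against 3NC (edgeR adjusted p = 0.764, 0.163 and 0.439), and DESeq2 called it in overexpression against 5NC (adjusted p = 0.0393). Sun5 links the coupling apparatus to the nuclear envelope and is also on the round spermatid list. So is Spaca1, and Odf1, Oaz3 and Smcp of the related lists are also on the elongating spermatid list. Counts for the related lists and for the spermatid markers are therefore partly of the same genes. Among 15 genes of acrosome biogenesis, where Spata16 acts, Spaca1 had 0.36 in overexpression against 5NC and -0.38 in 5NC against 3NC (edgeR adjusted p = 0.32 and 0.374), and Pick1 had 0.36 in knockdown against 3NC (0.764). Among 15 genes of the mitochondrial sheath and sperm calcineurin, Pdzd8 had 0.34 in overexpression against 5NC and -0.33 in 5NC against 3NC (edgeR adjusted p = 0.154 and 0.261, DESeq2 adjusted p = 0.0174 and 0.0371), and Kif5c had -0.21 in knockdown against 3NC (0.764).

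Among 10 genes of ribosome maturation around Spata5, Lsg1 had -0.35 in overexpression against 5NC and 0.21 in 5NC against 3NC (edgeR adjusted p = 0.167 and 0.448, DESeq2 adjusted p = 0.0436 in overexpression against 5NC), and Eif6 had 0.43 in knockdown against 3NC (0.764). Among 8 retinal ciliary partners of Spata7, Rpgr had 0.39 in overexpression against 5NC and -0.36 in 5NC against 3NC (edgeR adjusted p = 0.221 and 0.338), and Rpgrip1 had 0.10 in knockdown against 3NC (0.766). In the difference of both effects, the smallest p of each list fell on Actrt1 (-0.46), Spaca1 (-0.36), Pdzd8 (-0.41), Otulin (0.63), Rpl24 (0.17) and Rpgr (-0.48), of which 0 passed in edgeR.

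Spata33, of the midpiece mitochondria, measured 436, 334 and 439 CPM in 3NC, 464, 388 and 396 CPM in 5NC, 382, 467 and 498 CPM in the knockdown group and 456, 457 and 364 CPM in the overexpression group. All 4 groups overlapped, with 3NC replicate 2 the lowest library. Spata24 measured 517, 348 and 457 CPM in 3NC, 500.1, 375 and 405 CPM in 5NC, 438, 537 and 519 CPM in the knockdown group and 513, 515 and 403 CPM in the overexpression group, also with overlap. Spata4, the highest of all, measured 1105, 1026 and 1239 CPM in 3NC and 978, 1091 and 1126 CPM in the knockdown group, at -0.08 (SE 0.10, edgeR adjusted p = 0.842). Spata17, which carries calmodulin-binding IQ motifs, had log2 fold changes of -0.03, -0.05 and -0.01 in the 3 pairs of groups and was among the steadiest genes, with 61.9 to 76.1 RPKM over 12 libraries.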

How the data were processed

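Testis RNA of 12 libraries was sequenced after oligo(dT) enrichment, per the methods, although the labels name total RNA. The authors aligned reads to reference genes with SOAPaligner and deposited estimated counts per gene, unscaled, on build mm10 (GRCm38). The deposited table also holds RPKM values computed by the authors, which sum to different totals between libraries. Its 18 per-sample columns from libraries of other experiments were left out. The authors called genes with DEGseq, which has no term for the spread between libraries.

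Estimated counts were rounded, and filterByExpr kept 16388 of 20788 genes. All 12 libraries entered 1 edgeR 4.0.16 quasi-likelihood fit with TMM scaling and 1 coefficient per group. P-values were adjusted over all genes tested by the Benjamini-Hochberg method at a threshold of 0.05. CPM are scaled by TMM, and CPM are not compared between genes. Depth limits precision most for genes with few reads. Alternatives were DESeq2, limma, other scaling, no filter, a replicate block, libraries left out and a depth term. The edgeR step was run on simulated counts as a check of the code, and the outcome is not given here. Genes named individually were the 6 of highest median RPKM, those with the 3 smallest p in each direction of a comparison, and 1 per known role. Spata9, Spata17, Spata21, Spata25 and Spata48, Hbb-bs and Tex21, the genes with shared bases and the 12-base run were named after their values were seen. The members and lists were chosen with earlier results of these data known. Sequences came from the RefSeq promoter table, and shared bases from GENCODE transcripts, of GRCm38.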

Additional observations from a re-analysis of the deposited data

How the results depend on the processing

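Of 64 alternative counts of called Spata genes, 58 were 0. In overexpression against 5NC the count rose from 0 to 2 with only the libraries of the comparison, to 3 with DESeq2 and to 1 with limma-trend on log2(RPKM + 0.1). In 5NC against 3NC it rose to 1 with DESeq2 and to 1 without 3NC replicate 2 and knockdown replicate 1 together. With each library left out in turn the counts were 0 to 0 in knockdown against 3NC, in overexpression against 5NC and in the difference of both effects, and 0 to 1 in 5NC against 3NC, where 3NC replicate 2 made the difference. The median log2 fold change then ran from -0.0875 to 0.0959 in knockdown against 3NC, where leaving out 3NC replicate 2 or knockdown replicate 2 or 3 took it below 0, from 0.112 to 0.19 in overexpression against 5NC, from -0.302 to -0.0941 in 5NC against 3NC, and from -0.274 to -0.097 in the difference. The lean of 5NC was weakest, at -0.0941 and -0.0961, without 3NC replicate 1 or 3. The causes were not tested. Spata4 in 5NC against 3NC turned to -0.000447 without 3NC replicate 2 and to -0.0527 with the depth term, and Spata5 turned to -0.0546 with the depth term. Of 384 alternative values of individual genes, 374 kept their side of 0 and of the threshold and 7 came past the threshold.

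Replicate numbers are shared between groups, but same-numbered libraries did not deviate together, with correlations of -0.52, -0.64 and 0.39 in knockdown and 3NC, 0.20, -0.12 and 0.15 in overexpression and 5NC, and 0.31, 0.18 and -0.01 in 5NC and 3NC. With a replicate block the counts stayed at 0 in each comparison, and the medians were 0.05, 0.18, -0.18 and -0.15. Depth limits Spata13, Spata5l1 and Spata2 most, whose lowest libraries held 103, 77 and 170 reads.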
